A study of Mus musculus with 60 samples.

Results

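The genes described here are 10 that mark the epithelial or the mesenchymal state of a cell: Cdh1, Epcam, Cldn4, Cldn6 and Cldn7 on the epithelial side, Cdh2 and Vim on the mesenchymal side, and the repressors Snai1, Zeb1 and Zeb2. They were taken as every probe set whose platform symbol is exactly one of these names, which gave 21 probe sets (14 on the array MOE430A and 7 on MOE430B) for 10 of the 18193 genes that the arrays name by a single symbol. Of the 10 genes, 9 passed the filter on dim probe sets that left 13181 genes for testing, and Cldn4 did not. The cells were undifferentiated embryonal carcinoma, the stem cell of mouse teratocarcinomas, in 6 strains: CL6G26, CL6G36, CL6G45 and CL6G52, which are sublines of P19CL6; P19CL6 itself, a subclone of P19; and P19. All carry the label of a male C3H embryo, grew in alpha-MEM with serum and received no treatment that the labels name. Each strain had 5 replicates on both array types, 60 arrays in all. The sample titles call the replicates biological; they do not say whether these were separate cultures, nor how the sublines were obtained, and the p-values reflect the scatter of these libraries.

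In an epithelium, E-cadherin (Cdh1) holds neighbouring cells together at adherens junctions, claudins seal the tight junctions and Epcam is a surface adhesion molecule. In the epithelial-mesenchymal transition, which takes place in the embryo when mesoderm forms at the primitive streak, zinc-finger repressors of the Snail and ZEB families bind E-box sequences in the promoters of such genes, while N-cadherin (Cdh2) and the intermediate filament vimentin (Vim) come up. Pluripotent cells of the early embryo are epithelial, and embryonal carcinoma cells can hold transcripts of both kinds at once.

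The stretches upstream of 4 of the genes are printed: Epcam, Cldn6 and Cldn7, because P19 replicates 1, 2 and 3 lay above every P19CL6 array in each, and Vim as a gene of the mesenchymal side. They are the 250 bases before the start site of RefSeq on the build GRCm38.p6, all on the plus strand. Capitals mark the ZEB and Snail E-box CACCTG or its reverse complement CAGGTG, searched on both strands. For Cldn7 the second of its 2 RefSeq starts is shown, since the first window held no match. That window was thus chosen for its matches, and its count cannot be set against the shares of all windows given below. Cdh1 met the same rule as Epcam, but no window of it was available, and none could be printed for Cdh2 and Zeb1.
Epcam, chr17:87635729-87635978: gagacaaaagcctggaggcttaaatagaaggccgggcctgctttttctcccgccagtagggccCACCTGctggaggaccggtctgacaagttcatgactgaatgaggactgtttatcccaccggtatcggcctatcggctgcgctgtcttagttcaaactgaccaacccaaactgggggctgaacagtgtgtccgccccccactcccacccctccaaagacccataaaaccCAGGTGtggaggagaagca
Cldn6, chr17:23679115-23679364: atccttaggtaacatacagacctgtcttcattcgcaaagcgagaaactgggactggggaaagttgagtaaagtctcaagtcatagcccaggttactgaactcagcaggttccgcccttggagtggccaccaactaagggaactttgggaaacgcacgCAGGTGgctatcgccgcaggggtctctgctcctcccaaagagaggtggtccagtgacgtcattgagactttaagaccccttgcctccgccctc
Cldn7, chr11:69965171-69965420: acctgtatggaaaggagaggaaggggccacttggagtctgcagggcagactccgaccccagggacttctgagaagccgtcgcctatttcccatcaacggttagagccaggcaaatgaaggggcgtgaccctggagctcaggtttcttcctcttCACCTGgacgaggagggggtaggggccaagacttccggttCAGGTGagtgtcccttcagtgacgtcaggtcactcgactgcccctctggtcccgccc
Vim, chr2:13574061-13574310: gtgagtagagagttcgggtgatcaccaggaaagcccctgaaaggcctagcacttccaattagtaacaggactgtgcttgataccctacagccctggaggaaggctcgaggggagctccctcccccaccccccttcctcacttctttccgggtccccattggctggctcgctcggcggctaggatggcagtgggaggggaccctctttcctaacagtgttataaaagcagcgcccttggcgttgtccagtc
The Epcam window held 2 matches, which begin 187 and 19 bases before the start. Cldn6 held 1 at 93 bases and Cldn7 held 2 at 97 and 57 bases, and these letters are not in the Vim window. Of the other members with a window, Cldn4 and Snai1 held 1 match each, and the 4 windows of Zeb2 held none. Over the 32851 windows of all genes, 17.2% held the motif and 2.06% held it at least 2 times. A match describes these letters only and was not tested as a binding site.

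Levels are given as log2 of the signal after quantile normalization, on which a difference of 1 is a 2-fold change. Each gene was read from its brightest probe set, which for all 9 lay on MOE430A, and levels are not compared between genes. The floor under which a probe set counted as dim was 4.62 on MOE430A and 4.15 on MOE430B. Over the tested probe sets of MOE430A, 3 of the 30 arrays stood closer by mean correlation to another strain than to their own: the libraries labelled P19 replicates 4 and 5, closest to P19CL6, and the library labelled CL6G52 replicate 1, closest to CL6G45. On MOE430B these 3 and CL6G26 replicate 5 did so, among 30. The correlations were weak there: P19 replicate 4 gave -0.006 with P19 and 0.006 with P19CL6, and CL6G26 replicate 5 gave -0.025 with CL6G26 and -0.021 with P19CL6. Calls on the 9 genes and counts over the gene lists are therefore given with all arrays and without those 3. Since the 3 were chosen by their resemblance to another strain, leaving them out widens the differences between strains by construction, and the second set of values adds no independent support. Markers of pluripotent embryonal carcinoma were measured for 7 of 8 genes, Zfp42 being under the floor on every array, and their summed signal ran from 8595 to 10880 in the sublines, 9348 to 9920 in P19CL6 and 9237 to 9752 in P19. Single markers did change against P19CL6: Nanog was lower in CL6G36 (-1.10), CL6G45 (-1.02) and CL6G52 (-0.66). Tdgf1 was lower and Utf1 higher in CL6G36 and CL6G45, Dnmt3b was higher in CL6G45 (0.38), and Tdgf1 was lower in CL6G52.

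**Figure D1:**
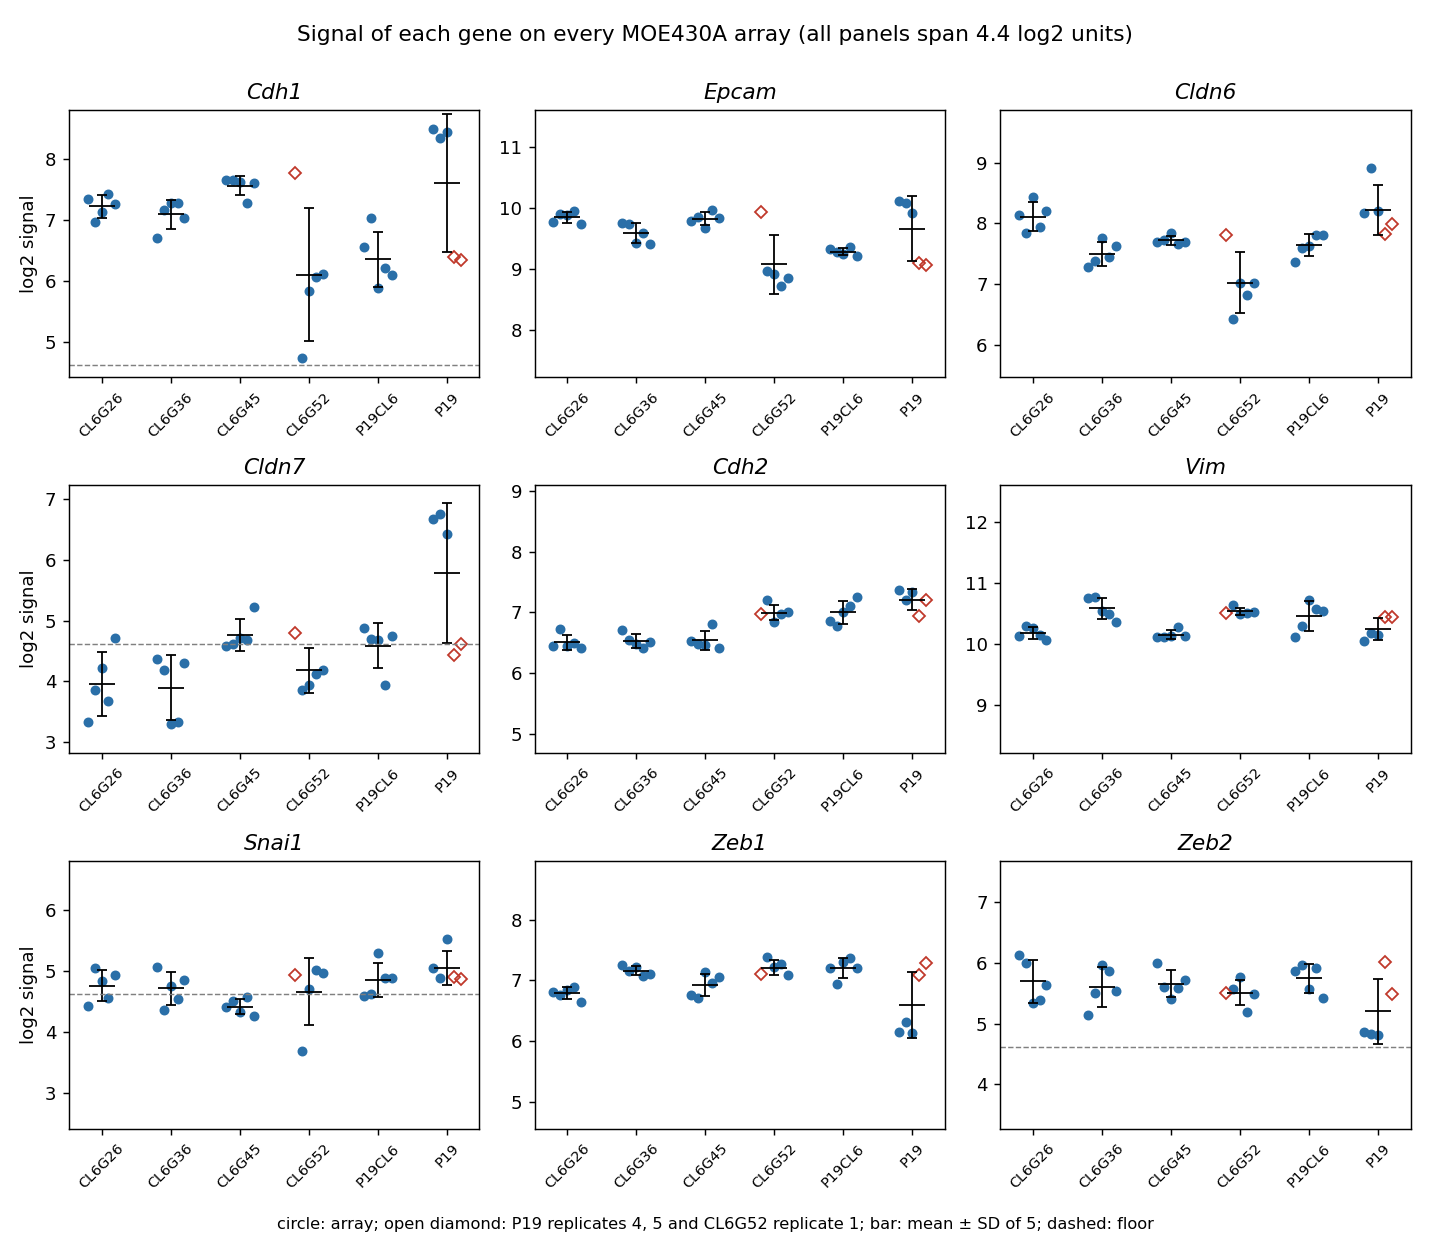
Log2 signal (vertical axis) of the 9 tested genes on the 30 MOE430A arrays, by strain. Circles are arrays, open red diamonds the libraries labelled P19 replicates 4 and 5 and CL6G52 replicate 1, black bars the mean ± SD of 5 arrays and the dashed line the floor of 4.62. In the Cdh1, Epcam, Cldn7, Zeb1 and Zeb2 panels the P19 diamonds lie with the P19CL6 arrays and apart from the other P19 arrays.

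E-cadherin was lower in P19CL6 than in 3 of the 5 libraries labelled P19, higher in CL6G45 than in P19CL6, and scattered widely within P19 and CL6G52. Cdh1 read 6.56, 7.04, 5.88, 6.21 and 6.09 in the 5 P19CL6 replicates, against 8.49, 8.34 and 8.45 for P19 replicates 1 to 3 and 6.38 and 6.35 in the libraries labelled P19 replicates 4 and 5. The first 3 P19 arrays were thus the highest of the 30 and those 2 libraries fell inside the P19CL6 range. The mean was 6.35 ± 0.45 in P19CL6 and 7.60 ± 1.13 in P19 (SD, n = 5 each). The difference of -1.25 (SE 0.39) missed the threshold with an adjusted p of 0.05004 (limma, P19CL6 minus P19, all arrays). The P19 mean without the 3 libraries was 8.43 ± 0.08 (n = 3) and the difference -2.08 (SE 0.23, adjusted p = 4.499e-08).

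Among the sublines, Cdh1 was above P19CL6 in CL6G45. Its 5 arrays read 7.65, 7.65, 7.63, 7.28 and 7.61 and did not overlap those of P19CL6, and the difference was 1.21 (SE 0.39, adjusted p = 0.0283). This call was lost in 7 of 24 alternative settings, with an adjusted p of at most 0.0748. CL6G26 read 7.35, 6.96, 7.13, 7.43 and 7.26, and CL6G36 read 6.70, 7.17, 7.28, 7.28 and 7.03. Each of these ranges overlapped P19CL6 through its replicate 2 at 7.04. The differences from P19CL6 were 0.87 (95% interval 0.08 to 1.66, adjusted p = 0.343) in CL6G26 and 0.74 (-0.05 to 1.53, adjusted p = 0.200) in CL6G36. Both passed without the 3 libraries, with adjusted p of 0.0082 and 0.00643, although no array of these strains was removed: the differences were the same and the shared SE was 0.20 in place of 0.39.

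CL6G52 gave the widest Cdh1 values of any subline. The library labelled CL6G52 replicate 1 read 7.77, just above the CL6G45 arrays and under P19 replicates 1 to 3, whereas replicates 2 to 5 read 4.74, 5.83, 6.06 and 6.12. The difference from P19CL6 was -0.25 (95% interval -1.04 to 0.54, adjusted p = 0.8003) with that library and -0.67 (SE 0.21, adjusted p = 0.0404) without it and the 2 P19 libraries. In order of mean, the strains ran P19, CL6G45, CL6G26, CL6G36, P19CL6 and CL6G52, and none of the 5 pairs of neighbours passed the test with all arrays. The order was the same without the 3 libraries, and 3 of the 5 pairs passed: P19 above CL6G45 (adjusted p = 0.00305), CL6G36 above P19CL6 and P19CL6 above CL6G52.

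Epcam followed a like course with far less scatter. It read 9.32, 9.27, 9.25, 9.37 and 9.22 in P19CL6, against 10.12, 10.09 and 9.93 for P19 replicates 1 to 3 and 9.10 and 9.06 in the libraries labelled P19 replicates 4 and 5. Those 2 libraries lay under every P19CL6 array, and the other 3 above every one. The difference, P19CL6 minus P19, was -0.37 (SE 0.18, adjusted p = 0.212) with all arrays and -0.76 (SE 0.08, adjusted p = 1.989e-08) without the 3 libraries.

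In CL6G45 Epcam read 9.79, 9.86, 9.67, 9.97 and 9.84, all above P19CL6, and the difference of 0.54 (SE 0.18) passed with an adjusted p of 0.0339. The call was lost in 13 of 24 alternative settings, with an adjusted p of at most 0.09493. CL6G26 at 9.74 to 9.95 and CL6G36 at 9.42 to 9.76 did not overlap P19CL6 either, but their differences of 0.56 (adjusted p = 0.111) and 0.30 (adjusted p = 0.266) passed only without the 3 libraries, at adjusted p of 2.837e-06 and 0.00169. CL6G52 replicates 2 to 5 read 8.97, 8.91, 8.72 and 8.85, the lowest 4 of the 30 arrays, and the library labelled CL6G52 replicate 1 read 9.93. With it the difference from P19CL6 was -0.21 (adjusted p = 0.581), and without the 3 libraries it was -0.43 (SE 0.07, adjusted p = 0.000263).

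A further Epcam probe set, 1447899_x_at on MOE430B, did not repeat the CL6G52 values. It read 6.34, 6.12, 6.50, 6.51 and 6.08 in CL6G52, against 5.95, 5.12, 4.605, 4.29 and 5.43 in P19CL6, with no overlap. On this probe set CL6G52 was thus 1.23 above P19CL6 (SE 0.29, adjusted p = 0.0374), the opposite sign to MOE430A. It took the same sign as MOE430A in P19CL6 minus P19 (-1.24, adjusted p = 0.0440) and in CL6G45 minus P19CL6 (1.52, adjusted p = 0.0024). Probe sets of this kind can bind transcripts of other genes, and whether that bears on the disagreement was not tested.

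**Figure D2:**
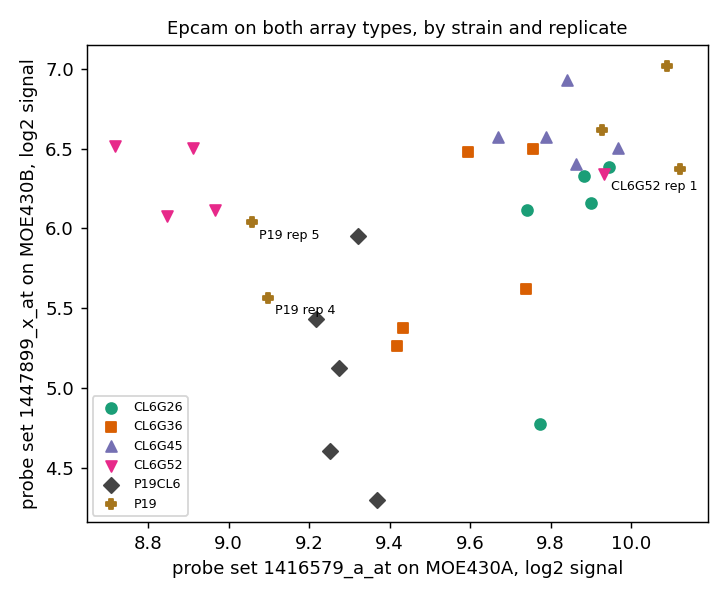
Log2 signal of Epcam on MOE430A (horizontal axis) against its other probe set on MOE430B (vertical axis), 1 point for each of the 30 strain and replicate labels. CL6G52 replicates 2 to 5 lie at the left with the lowest MOE430A signals of 8.72 to 8.97 and at 6.08 to 6.51 on MOE430B, above every P19CL6 point.

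The claudins are the sealing proteins of tight junctions, and Cldn6 is known from embryonic epithelia and pluripotent cells. It was lower in P19CL6, at 7.37, 7.59, 7.63, 7.81 and 7.81, than in P19, at 8.18, 8.92, 8.20, 7.83 and 7.99. The groups did not overlap even with all 5 P19 libraries, although the lowest P19 array at 7.83 lay next to the highest P19CL6 arrays. The difference was -0.58 (SE 0.18, adjusted p = 0.0480) with all arrays and -0.79 (SE 0.15, adjusted p = 0.000270) without the 3. The call was lost in 14 of 24 alternative settings, with an adjusted p of up to 0.352.

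Cldn6 was also the member that fell in CL6G52 against P19CL6. It read 6.43, 7.02, 6.83 and 7.03 in replicates 2 to 5, all under P19CL6, and 7.81 in the library labelled CL6G52 replicate 1. The difference was -0.62 (SE 0.18, adjusted p = 0.0381) with it and -0.81 (SE 0.14, adjusted p = 0.000307) without the 3 libraries, and it was lost in 13 of 23 alternative settings, with an adjusted p of up to 0.413. CL6G26 lay above P19CL6 on every array, at 7.85 to 8.44, with a difference of 0.47 that passed only without the 3 libraries (adjusted p = 0.215 and 0.0424). In CL6G36 and CL6G45 the differences from P19CL6 were -0.14 (95% interval -0.50 to 0.22) and 0.08 (-0.28 to 0.44), which leave room for a change of either sign.

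Cldn7 was near the floor except in P19 replicates 1 to 3. P19CL6 read 4.88, 4.70, 4.67, 3.94 and 4.74, against 6.67, 6.75 and 6.43 for P19 replicates 1 to 3 and 4.43 and 4.62 in the libraries labelled P19 replicates 4 and 5. The difference was -1.19 (SE 0.37, adjusted p = 0.0503) with all arrays and -2.03 (SE 0.30, adjusted p = 5.798e-06) without the 3. In the sublines the probe set was above the floor on 1, 0, 3 and 1 of 5 arrays of CL6G26, CL6G36, CL6G45 and CL6G52, against 4 of 5 in P19CL6, and no subline passed the test against P19CL6 with or without the 3 libraries. Cldn4, a claudin of the trophectoderm and of many adult epithelia, was above the floor on 3 of 30 arrays and ran from 1.95 to 4.85, so no change could be measured.

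N-cadherin was lower in 3 of the 4 sublines than in P19CL6. Cdh2 read 6.44, 6.72, 6.45, 6.50 and 6.42 in CL6G26, 6.71, 6.54, 6.48, 6.41 and 6.51 in CL6G36, and 6.54, 6.49, 6.46, 6.81 and 6.41 in CL6G45, against 6.86, 6.78, 7.01, 7.10 and 7.26 in P19CL6. CL6G26 and CL6G36 did not overlap P19CL6, and CL6G45 did so through its replicate 4 alone. The differences were -0.49 (adjusted p = 0.00433), -0.47 (adjusted p = 0.00116) and -0.46 (adjusted p = 0.00167), each with an SE of 0.10, and all passed without the 3 libraries too. These comparisons share the P19CL6 arrays. CL6G52, at 6.97, 7.20, 6.83, 6.98 and 7.003, lay within the P19CL6 range, with a difference of -0.002 (95% interval -0.21 to 0.20).

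A further Cdh2 probe set, 1418815_at on MOE430A, agreed in sign and differed in size. It was -0.27 (adjusted p = 0.470) in CL6G26, -0.74 (adjusted p = 0.000304) in CL6G36 and -1.03 (adjusted p = 5.979e-06) in CL6G45, each minus P19CL6. The CL6G26 call thus rested on one of the probe sets. Between P19CL6 and P19 the read probe set gave -0.21 (SE 0.10, adjusted p = 0.213), and -0.30 (SE 0.11, adjusted p = 0.0441) without the 3 libraries. N-cadherin was therefore lower in P19CL6 beside the lower E-cadherin in that setting.

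Vimentin was bright in every strain and moved little, with strain means that spanned 0.43. It read 10.11, 10.11, 10.13, 10.29 and 10.12 in CL6G45, against 10.12, 10.29, 10.73, 10.58 and 10.55 in P19CL6. The ranges overlapped through P19CL6 replicate 1, with replicate 2 just above the highest CL6G45 array, and the difference was -0.30 (SE 0.09, adjusted p = 0.0232). CL6G26 minus P19CL6 was -0.27 (adjusted p = 0.151), CL6G36 minus P19CL6 was 0.13 (adjusted p = 0.357) and CL6G52 minus P19CL6 was 0.08 (adjusted p = 0.7103). The CL6G45 call held without the 3 libraries (adjusted p = 0.01105), and none of these others passed there. Among 24 alternative settings the CL6G45 call was lost in 5, with an adjusted p of up to 0.358. P19CL6 was 0.20 above P19 (adjusted p = 0.194) with all arrays, and 0.33 above it (SE 0.10, adjusted p = 0.0139) without the 3. The other Vim probe sets, 1438118_x_at and 1456292_a_at, gave -0.27 and -0.15 in CL6G45 minus P19CL6 and passed in none of the 5 comparisons with all arrays, although both passed in P19CL6 minus P19 without the 3 libraries (0.65 and 0.50). On the probe sets read, P19CL6 replicates 1 and 2 held the lowest Vim, the lowest Cdh2 and the highest Cdh1 of that strain, as seen after the values were known. They also held its lowest Cldn6 (7.37 and 7.59), a gene of the epithelial side. On the other Vim probe sets a different replicate of P19CL6 was lowest.

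Of the repressors, Zeb1 was higher in P19CL6 than in P19 replicates 1 to 3, and Zeb2 passed the test only without the 3 libraries. Zeb1 read 7.21, 6.95, 7.30, 7.37 and 7.21 in P19CL6, against 6.15, 6.32 and 6.13 for P19 replicates 1 to 3 and 7.09 and 7.28 in the libraries labelled P19 replicates 4 and 5. The difference was 0.61 (SE 0.15, adjusted p = 0.0192) with all arrays and 1.01 (SE 0.10, adjusted p = 1.179e-08) without the 3. This call was lost in 6 of 24 alternative settings, with an adjusted p of up to 0.202. Zeb2 read 5.86, 5.97, 5.57, 5.91 and 5.42 in P19CL6, against 4.86, 4.83 and 4.82 in the first 3 P19 arrays and 6.01 and 5.50 in the other 2. Its difference was 0.54 (SE 0.20, adjusted p = 0.106) with all arrays and 0.91 (SE 0.19, adjusted p = 0.000700) without the 3. On MOE430B the tested Zeb1 probe set gave 0.34 (adjusted p = 0.683) and the tested Zeb2 probe set gave 0.10 (adjusted p = 0.944), and neither passed without the 3 libraries.

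Among the sublines Zeb1 read 6.81, 6.76, 6.84, 6.90 and 6.64 in CL6G26, where every array lay under P19CL6. The difference of -0.42 (SE 0.15) did not pass with all arrays (adjusted p = 0.199) and passed without the 3 libraries (SE 0.09, adjusted p = 0.00473). CL6G45 gave -0.28 (adjusted p = 0.224, and 0.0220 without the 3 libraries). CL6G36 and CL6G52 gave -0.04 (95% interval -0.36 to 0.27) and 0.0054 (-0.31 to 0.32). Zeb2 passed in no subline in either setting, with differences from -0.24 to -0.05. Snai1, the Snail repressor, lay close to the floor, above it on 19 of 30 arrays. It passed in none of the 5 comparisons with or without the 3 libraries. CL6G45 was under the floor on all 5 of its arrays, and P19CL6 was above it on 4 of 5. Their difference did not pass in limma (adjusted p = 0.173), so no fold is given.

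**Figure D3:**
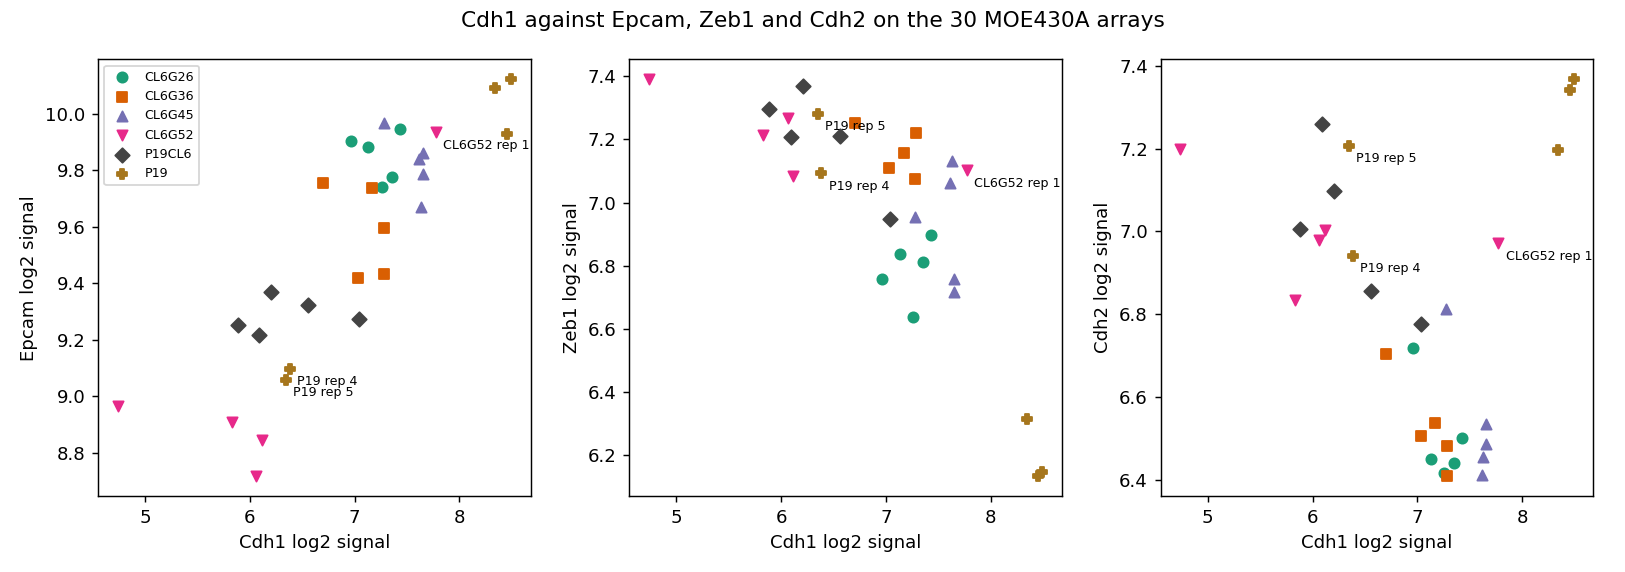
Log2 signal of Cdh1 (horizontal axis) against Epcam, Zeb1 and Cdh2 (vertical axes) on the 30 MOE430A arrays, 1 symbol for each strain. The libraries labelled P19 replicates 4 and 5 lie at a Cdh1 of 6.38 and 6.35 with the P19CL6 points in the Epcam and Zeb1 panels, and the library labelled CL6G52 replicate 1 at 7.77 with CL6G45 in the Epcam panel. On the Cdh2 axis the latter lies at 6.97, within the range of the other CL6G52 arrays and above every CL6G45 array.

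Counted over the 9 tested members, P19CL6 minus P19 gave 2 calls (Cldn6 lower, Zeb1 higher), against 4.46% of all 13181 genes. It gave 8 without the 3 libraries, Snai1 being the exception, against 21.3% of all genes, where 11.5% were higher and 9.79% lower. Of the members Cdh1, Cdh2, Epcam, Cldn6 and Cldn7 were lower and Vim, Zeb1 and Zeb2 higher. CL6G26 minus P19CL6 gave 1 call, Cdh2, against 1.24% of all genes, and 5 without the 3 libraries, against 2.79%. CL6G36 minus P19CL6 gave 1, again Cdh2, against 13.5%, and 3 against 18.0%. CL6G45 minus P19CL6 gave 4 (Cdh1 and Epcam higher, Cdh2 and Vim lower) against 13.3%, and 5 against 17.7%. CL6G52 minus P19CL6 gave 1 (Cldn6 lower) against 3.18%, and 3 against 7.08%. With 9 members a single call moves the share far, so the counts of 1 are no more than that gene's own result. The sublines differed among themselves by the F test in Cdh1, Cdh2, Epcam, Cldn6 and Vim, 5 of 9 against 23.2% of all genes, and in 7 of 9 against 31.1% without the 3 libraries, where Cldn7 and Zeb1 joined them. Cldn7 lay close to or under the floor of 4.62 in the sublines, with means of 3.89 to 4.76. The other tested probe sets of Epcam, Vim and Zeb1 did not pass the F test in either setting, and that of Cdh2 passed in both.

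**Figure D4:**
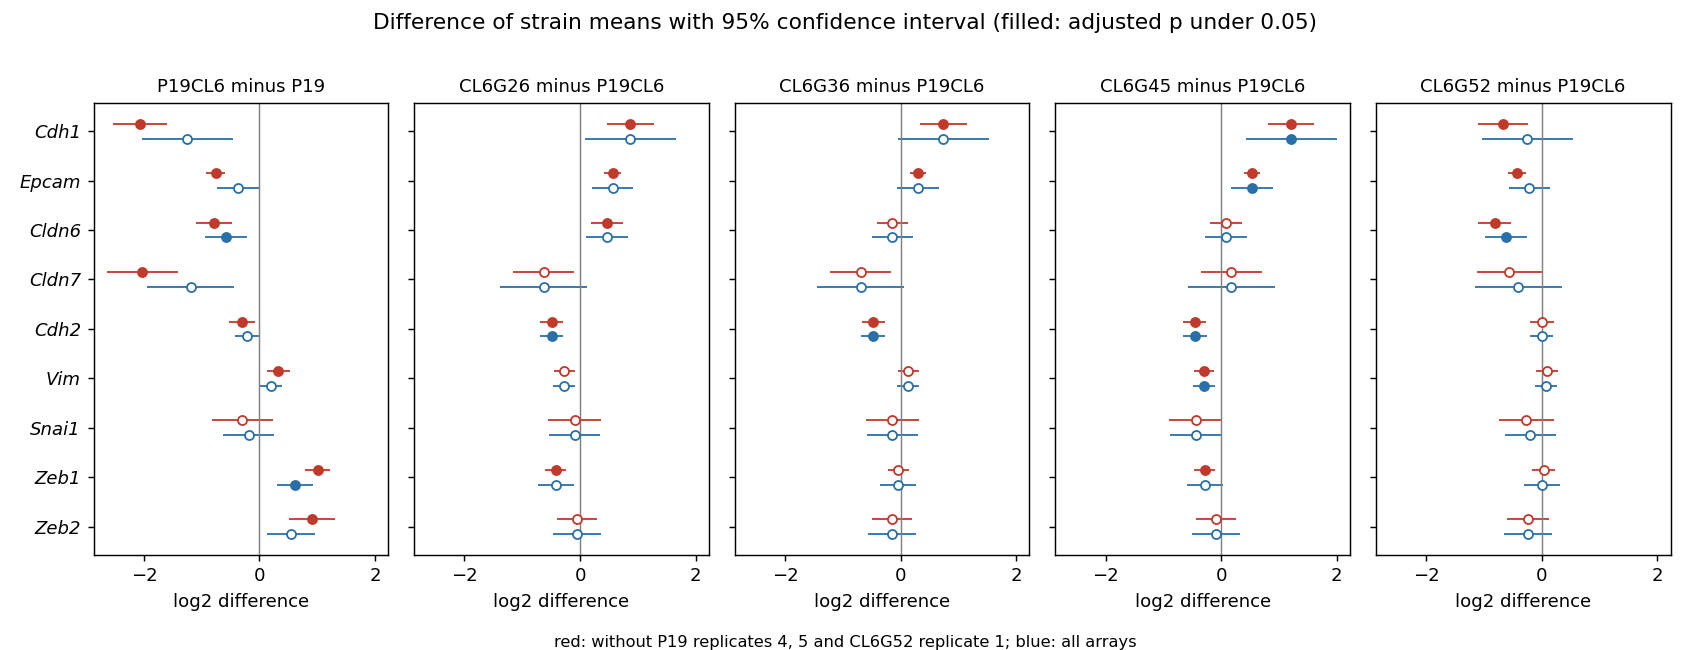
Differences of strain means on the log2 scale (horizontal axis) with 95% confidence intervals for the 9 tested genes in 5 comparisons. Filled symbols passed an adjusted p of 0.05, and red symbols leave out the libraries labelled P19 replicates 4 and 5 and CL6G52 replicate 1. In P19CL6 minus P19 the red interval of Cdh1 lies at -2.54 to -1.61, against -2.04 to -0.46 with all arrays.

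Signs of RNA quality and of other cell types moved with some of these differences. The Gapdh 3' to 5' probe set ratio on MOE430A was 0.835 to 0.887 in P19CL6 and 0.908 to 0.954 in P19, with no overlap, and on MOE430B 0.829 to 0.878 and 0.815 to 0.917 in the same order. All 5 P19 libraries carried the higher MOE430A ratio, those labelled replicates 4 and 5 included. Of the endoderm markers 5 of 10 were measured, and Lama1 and Ttr were under the floor on every array. Against P19CL6, 2 passed in CL6G36, 3 in CL6G45 and 1 in CL6G52, all lower, with Foxa2 in each (-1.99, -1.38 and -1.89). The summed signal of the 5 was 636.6 to 760.6 in CL6G26, 377.5 to 464.6 in CL6G36 and 303.2 to 392.4 in CL6G45. It was 329.2 to 626.2 in CL6G52, against 564.5 to 719.8 in P19CL6. P19 ran from 352.8 to 727, and 1 endoderm marker, the basement membrane collagen Col4a1, was higher in P19CL6 than in P19 (0.74, adjusted p = 0.0397), and Foxa2 (0.62) was so too without the 3 libraries, where Col4a1 gave 1.28. In that setting 2 of the 5 measured endoderm markers were higher and 1 was lower. Of the neural markers 5 of 8 were measured, at 971.6 to 1108 in CL6G26, 418.7 to 549.7 in CL6G36, 468.3 to 638.5 in CL6G45 and 413.6 to 644.6 in CL6G52 against 857.2 to 925.2 in P19CL6, while P19 ran from 861.3 to 946.8, and Sox1 and Neurog1 were under the floor on every array. Only Nefl and Nefm passed against P19CL6, both lower: CL6G36 (-1.30 and -0.46), CL6G45 (-0.96 and -0.42) and CL6G52 (-1.43 and -0.55). The medians of the 5 neural markers were -0.46, -0.18 and -0.09 in these sublines. Of the fibroblast markers 3 of 8 were measured, with Col3a1, Postn, Lum and Pdgfrb under the floor on every array, and the summed signal was 68.56 to 103.1 in P19CL6 against 74.06 to 177.9 in P19. Of the blood markers 1 of 4 was measured, with Ptprc under the floor on every array. The part of these values in the results was not tested, and in bulk RNA fewer cells of a type and less RNA per cell cannot be told apart.

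The following lists hold other genes of the same pathways. As background, P19CL6 minus P19 called 2.57% of all genes higher and 1.89% lower, CL6G26 0.417% and 0.827%, CL6G36 6.83% and 6.72%, CL6G45 6.55% and 6.71%, and CL6G52 1.38% and 1.80%, each subline minus P19CL6. Without the 3 libraries the shares called in either direction were larger. They were 21.3% in P19CL6 minus P19, and 2.79%, 18.0%, 17.7% and 7.08% in the sublines in the same order. List counts without the 3 libraries are to be read beside these shares. Some epithelial regulators outside the members gave lower signals in P19CL6 than in P19. Of the tested epithelial members, Cldn6 alone passed in that comparison with all arrays. Cdh1, Epcam and Cldn7 passed only without the 3 libraries. Of 13 tested genes in the list of epithelial transcription factors, splicing factors and proteases, 2 passed and both were lower: Grhl2 (-0.73, adjusted p = 0.0121) and Klf5 (-0.80, adjusted p = 0.0211), transcription factors of epithelia. The list's median was -0.45, or -0.23 with signals under the floor raised to it, against 0.0058 over all genes. With the 3 libraries left out, 7 were lower and 1 higher, with a median of -0.53, or -0.38 with signals raised to the floor, against 0.0038. Among them was Esrp1, which directs the epithelial pattern of splicing. It read 3.63 to 4.27 in P19CL6, under the floor on all 5 arrays, against a mean of 6.93 ± 0.09 in P19 replicates 1 to 3, and was at least 4.98-fold lower (adjusted p = 6.584e-10). Of 18 tight junction genes 1 was lower, Patj (-0.67, adjusted p = 0.0341), a scaffold of the apical complex, and the list's median was -0.15. With those 3 libraries left out 4 were lower, led by Patj (-1.10), and 1 higher, the polarity protein Pard3 (0.50). Of 17 adherens junction, desmosome and keratin genes 0 passed in limma, with 7 at an unadjusted p under 0.05 and a median of -0.07. Without the 3 libraries 4 were lower and 4 higher, among them the keratin Krt18 at 0.85 (adjusted p = 8.912e-07).

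With all arrays, other mesenchymal genes passed in that comparison at a share near that of all genes. Of 19 cytoskeleton, matrix and adhesion genes 1 passed, Col1a2, a collagen, which was 0.73 lower (adjusted p = 0.0121), and without the 3 libraries 1 was higher (Sparc, 0.77) and 5 were lower. The list's median with all arrays was 0.0088, and without the 3 it was -0.02. Of 10 other transcription factors of the transition 1 passed, Id1, an inhibitor of bHLH factors, at -0.99 (adjusted p = 0.0121), and it alone did so without the 3 libraries (-1.34). Of 14 TGF-beta pathway genes, a pathway that can drive the transition, 1 passed, the ligand Tgfb1 at -0.51 (adjusted p = 0.0338). Without the 3 libraries 3 TGF-beta genes were lower, led by Skil (-0.63), a repressor of Smad proteins, and 3 higher, led by the ligand Tgfb3 (0.71). The medians of the other transcription factors and of the TGF-beta genes were -0.06 and -0.02 with all arrays.

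In the sublines the simple epithelial keratins were lower than in P19CL6. Krt8, in the list of adherens junction, desmosome and keratin genes, was lower than P19CL6 in each: -0.80 in CL6G26, -0.84 in CL6G36, -0.97 in CL6G45 and -1.03 in CL6G52, with adjusted p of 0.000506, 4.06e-05, 7.439e-06 and 8.609e-06. Its partner Krt18 was lower in CL6G36 (-0.84), CL6G45 (-0.95) and CL6G52 (-0.91). These comparisons share the P19CL6 arrays. Of the 17 genes of that list, CL6G26 had 0 higher and 1 lower, CL6G36 1 and 5, CL6G45 1 and 4, and CL6G52 0 and 2. The list medians were -0.15, -0.05, 0.02 and -0.17 for the 4 sublines in this order, with those of all genes between -0.0081 and 0.0034. Without the 3 libraries 5, 7, 7 and 3 genes passed, where 2.79%, 18.0%, 17.7% and 7.08% of all genes did. The CL6G26 calls then took in Krt18 (-0.50, adjusted p = 0.001476). The desmosome protein Dsp was under the floor on all CL6G36 arrays, at least 1.61-fold lower than P19CL6 (adjusted p = 0.0004415), and was lower in CL6G45 too (-0.78, adjusted p = 0.01008). Perp, another desmosome protein, was lower in both (-0.75 and -0.98). The adhesion protein Nectin3 was 0.64 higher in CL6G45 (adjusted p = 0.00550).

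Tight junction genes passed in CL6G45 alone among the sublines with all arrays, a difference between sublines that was not itself tested. There 2 of 18 were higher, the polarity protein Crb3 (0.43, adjusted p = 0.00671) and the scaffold Tjp1 (0.22, adjusted p = 0.0228), with a list median of 0.12 against 0.0034 over all genes. In limma 0 passed in CL6G26, CL6G36 and CL6G52, with 3, 6 and 2 at an unadjusted p under 0.05 and list medians of -0.03, 0.13 and 0.05. There 0, 0 and 1 passed without the 3 libraries, the last being Marveld3, which was under the floor on every array compared, and 2 passed in CL6G45. Of 13 epithelial regulators, CL6G45 had 1 higher, the protease inhibitor Spint2 (0.43, adjusted p = 0.0409), CL6G36 had 2 lower, and CL6G26 and CL6G52 had 0 in limma, each with 3 at an unadjusted p under 0.05. In CL6G26, CL6G36, CL6G45 and CL6G52, 1, 4, 2 and 3 of the 13 passed without the 3 libraries. Esrp1, with the 3 libraries left out, was at least 1.38-fold higher than P19CL6 in CL6G36 (adjusted p = 0.000374) and at least 1.71-fold higher in CL6G45 (adjusted p = 2.182e-05), P19CL6 being under the floor on every array. In CL6G52 it passed with both groups under the floor on every array, so no fold is given.

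Of the matrix genes, Fn1, which encodes fibronectin, was lower than P19CL6 in CL6G36 (-1.09), CL6G45 (-0.75) and CL6G52 (-0.97), with adjusted p of 1.194e-06, 0.000315 and 3.449e-05. Of 19 mesenchymal genes, CL6G26 had 0 passing in limma (7 at an unadjusted p under 0.05), CL6G36 had 2 lower, CL6G45 3 lower, and CL6G52 1 higher (the collagen Col5a2, 0.76) and 2 lower (with the matrix protease Mmp2 at -1.29), and the list medians were -0.16, 0.08, -0.0048 and 0.08. Without the 3 libraries 2, 4, 7 and 4 passed in this order of sublines. Of 10 other transcription factors, 2 were lower in CL6G26 (Tcf3 and Id1), 4 lower in CL6G36, 1 higher and 1 lower in CL6G45, and 1 higher (Sox4, 0.49) and 1 lower (Id3, -0.47) in CL6G52, with list medians of -0.37, -0.63, -0.12 and -0.55, or -0.16, -0.37, -0.09 and -0.26 with signals raised to the floor. Leaving out the 3 libraries, 3, 5, 3 and 4 passed. Of 14 TGF-beta pathway genes, CL6G45 had 5 higher and 1 lower, led by Ltbp3 (0.90, adjusted p = 8.912e-05), which encodes a binding protein of latent TGF-beta. CL6G26 had 0 in limma, with 1 at an unadjusted p under 0.05, CL6G36 1 in each direction and CL6G52 1 higher, the signal transducer Smad2, and without the 3 libraries 0, 4, 6 and 2 passed.

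The genes whose strain means ran most like those of a member were sought for members that spanned at least 1 over the 6 strains. Likeness was the root mean square difference of centred strain means among the 1863 tested genes that span as much. For Cdh1 the nearest was Zfp950 (0.13), with strain means of 2.07 to 3.42 that lie under the floor. For Cldn6 it was 4933405E24Rik (0.06), with strain means of 3.05 to 4.13 under the floor, and then Trpa1 (0.09). For Cldn7 it was Slc37a1 (0.24), at 3.43 to 4.87. Without the 3 libraries the nearest to Epcam was Wfikkn2 (0.15), with strain means of 3.17 to 4.23 under the floor, to Cldn7 Tspan6 (0.26) and to Zeb1 Gamt (0.06), among 2477 genes.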

How the data were processed

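Transcripts of 6 strains were measured on 60 Affymetrix arrays, 30 of each of 2 types. The deposited values are linear intensity values per probe set, which the submitters' processing notes trace to GCOS without a version. Whether and to what target arrays were scaled is not given in the sources, and CEL files were not used here. Probe sets were named from the platform annotation where it gives 1 symbol. No 2 deposited columns were identical.

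Signals were quantile normalized within each array type, set to 1 where lower, and log2 transformed. A probe set was tested if it exceeded the floor (40th percentile on MOE430A, 60th on MOE430B) on at least 5 of 30 arrays. A gene was read from its brightest tested probe set, with x_at probe sets only where it had no other and MOE430A first. A group-means model over the 30 arrays of a type was fitted in limma 3.58.1 (R 4.3.3) with eBayes and a trend, leaving 24 residual degrees of freedom, and p-values were Benjamini-Hochberg adjusted over all probe sets tested on that type. A gene was called at an adjusted p under 0.05, two-sided. The same fit without the libraries labelled P19 replicates 4 and 5 and CL6G52 replicate 1 was added after seeing the data. Intervals are of the fit and not adjusted. The procedure was tested on simulated data.

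Named genes are all members, up to 4 called genes of each list by smallest adjusted p, and up to 3 genes most like a member. The members and lists were chosen with earlier results of these data known. Alternatives changed the scaling, low signals, filter, trend, arrays in the fit, probe set and replicate block. The number of arrays limits the precision.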

Additional observations from a re-analysis of the deposited data

Results flagged for a closer look

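Among the 54 groups of 5 arrays (9 genes in 6 strains), 9 held an array whose gap to the nearest of the others exceeded Dixon's critical value of 0.71 of the group's range, where chance gives about 1 in 20. For Cdh1 it was CL6G45 replicate 4 at 7.28, the other 4 lying at 7.61 to 7.65. For Cdh2 it was CL6G26 replicate 2 at 6.72. For Epcam it was the library labelled CL6G52 replicate 1 at 9.93, the other 4 lying at 8.72 to 8.97. Cldn7 stood apart in P19CL6 replicate 4 at 3.94 and in CL6G45 replicate 5 at 5.22, close to or under the floor. Vim stood apart in CL6G45 replicate 4 at 10.29 and in CL6G52 replicate 2 at 10.64. Snai1 did so in P19 replicate 3 at 5.53 and in CL6G52 replicate 2 at 3.69, which is under the floor. On the probe sets read, CL6G45 replicate 4 was thus the lowest of its strain in Cdh1 and the highest in Vim. It was also the highest of its strain in Cdh2 (6.81) and in the epithelial gene Epcam (9.97). On the Vim probe set 1438118_x_at it was the lowest (8.69).

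The sublines differed from one another, and so in their difference from P19CL6, in 5 members by limma's moderated F test. The adjusted p was 0.02109 for Cdh1, 0.0006275 for Cdh2, 0.003056 for Epcam, 0.0001975 for Cldn6 and 0.0003292 for Vim. On the probe sets read, CL6G52 was lowest in Cdh1, Epcam and Cldn6, and CL6G36 was highest in Vim. The other tested probe sets of Epcam (adjusted p = 0.322) and Vim (0.702 and 0.354) did not pass this F test, and that of Cdh2 did. On the other Epcam probe set the CL6G52 mean of 6.31 lay above CL6G26 (5.95) and CL6G36 (5.85).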

How the results depend on the processing

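Of 1066 alternative values of the 45 single differences, 954 kept their side of the threshold, 61 lost the call, 50 gained one, 1 without a call moved (Vim in CL6G52 without P19CL6 replicates 1 and 2, -0.08) and 0 called values reversed. With the deposited scaling the calls were 0 in P19CL6 minus P19 and, minus P19CL6, 0 in CL6G26, 0 in CL6G36, 1 in CL6G45 (Cdh1) and 0 in CL6G52, and 3 by the F test, where it called 0.364%, 0.258%, 2.5%, 2.92%, 1.3% and 9.25% of all genes. That scaling shifted the median of all genes by 0.12 in CL6G26, 0.12 in CL6G45 and 0.11 in CL6G52, and the share of calls that were higher was 81.2% in place of 57.7% in P19CL6 minus P19, 66.8% in place of 49.4% in CL6G45 and 78.9% in place of 43.4% in CL6G52. In P19CL6 minus P19 the count was 4 with signals under 16 raised to it (4.89% of all genes called) or with the mean of a gene's probe sets (5.37%). It was 1 with no filter (2.25%) or no trend (2.84%), and 0 with only the groups compared or without P19CL6 replicates 1 and 2, settings that called 0 and 10 of all 13181 genes. It was 4 without CL6G52 replicate 1 (6.05% of all genes) and 8 without P19 replicates 4 and 5 (19.6%) or without all 3 (21.3%). CL6G26 gave 5 with only the groups compared (1.81% of all genes), 3 without P19 replicates 4 and 5 (2.02%), 2 without CL6G52 replicate 1 (1.7%) or without P19CL6 replicates 1 and 2 (1.54%), and 5 without all 3 (2.79%). CL6G36 gave 3 with only the groups compared (14.7%) and 3 without all 3 (18%). CL6G52 gave 0 with no filter (1.93% of all genes), no trend (2.79%), only the groups compared (1.91%) or the replicate block (2.89%), and 3 without all 3 (7.08%). The cause was not tested. Leaving out single replicates gave 0 to 6 calls in P19CL6 minus P19, with 0 without P19 replicate 1, 2 or 3 (0 of all genes called), 5 without replicate 5 (11.4% of all genes) and 6 without replicate 4 (11.1%), so the members' count moved with that of all genes. It gave 1 to 2 in CL6G26, 1 to 1 in CL6G36, 1 to 3 in CL6G45 (1 without P19CL6 replicate 3, 4 or 5, 2 without CL6G45 replicate 1, 2 or 5), 0 to 1 in CL6G52 and 4 to 5 by the F test. In CL6G45 the call lost most often was that of Epcam. The CL6G52 call of Cldn6 was lost without any of its replicates 2 to 5 or P19CL6 replicates 2 to 5. Same-numbered replicates deviated together in no pair (correlations of -0.10 to 0.08 on MOE430A), so the numbers were not taken to pair the samples.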
